A study of Mus musculus with 32 samples.

Results

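The spleens of 4 male mice cloned by somatic nuclear transfer and labelled Dll1 cloned were compared on 2-colour arrays with pooled spleen RNA of conventionally bred mice labelled Dll1 heterozygotes. The arrays were taken by their titles, which gave 8 of the 32 arrays of the study: 2 for each of the 4 cloned mice, with the dyes swapped. Clones and pool shared the strain 129/SvJ, the male sex and an age of 18 to 19 weeks, so that the labels separate them by how the animals were made. The labels do not say which Dll1 allele was carried or which donor cells gave the clones. The protocol gives the pool as 6 animals, whereas the labels list 4 mouse identifiers, and the number was taken as unsettled. For comparison, 8 arrays held spleens of 4 wildtype clones against a pool of conventional wildtype mice, and 8 held livers of the same 4 Dll1 clones against a liver pool of the same conventional Dll1 heterozygotes.

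Dll1 encodes Delta-like 1, a ligand on the cell surface that activates Notch receptors on neighbouring cells. Activated receptors are cut, and the freed inner part enters the nucleus and joins Rbpj and Maml proteins at target genes such as those of the Hes and Hey families. In the spleen, Dll1 acting through Notch2 is known for its part in forming marginal zone B cells. The mouse spleen also holds T cells, macrophages of the red pulp, neutrophils, dendritic cells and, unlike the adult human spleen, many dividing red cell precursors. Nuclear transfer places the nucleus of a body cell in an egg whose own nucleus was removed, and imprinted genes and chromatin are often examined in the animals that result.

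Every value is a log2 ratio of clone over pool as deposited, so 1 stands for a clone signal of 2 times the pool signal. The direction is likely but not settled: it follows the order in which the titles name clone and pool, and the opposite reading would exchange higher and lower throughout. Arrays held 17828 to 20404 measured ratios of 20794 rows, with medians from -0.05 to 0.04, and the fewest were on the array of mouse 4 with the clone in Cy5. The 2 arrays of a mouse correlated across rows at -0.123 on average (-0.172 to -0.0763, 4 mice), whereas arrays of different mice with the clone in the same dye correlated at 0.192 in Cy5 and 0.134 in Cy3. The dye thus went with more of the array-wide pattern than the mouse did, which is why both orientations are given apart. These correlations are descriptions over rows that share the pool and the dyes. The deposited ratios were read as already turned to 1 direction. Turning the Cy3 arrays reversed the sign of 16 of 30 list medians and 44 of 99 named genes. It is given for the leading results only, so a value without it may also reverse under that reading. Turning subtracts the Cy3 values, so a gene with like values in both dyes moves to near 0. Where both dyes of a gene share a sign, a kept sign after turning says only that the Cy5 values lay further from 0. As deposited, Cy5 and Cy3 array means correlated at -0.298, and at -0.7 to -0.258 in the other groups. Constant values marking empty channels were all positive on the Cy5 arrays (287) and all negative on the Cy3 arrays (138). Hba-a1 kept its order of mice in both dyes, from mouse 2 (-2.04 and -2.4) to mouse 4 (-0.212 and -0.255). Whether the Cy3 arrays were turned before deposit was not tested. The table carries no gene names: a row was named by the symbol 11 places earlier in the platform table, a shift chosen from these data. Of 601 shifts, rows of 1 gene correlated best at that one, but weakly, with a mean r of 0.0562 (0.0504 without Hba-a1) against 0.0323 at the next best shift. Every gene name below rests on it. Ratios do not give the level of a gene, so the labelled tissue could not be checked against its markers. In bulk tissue, fewer cells of a type and less RNA per cell cannot be told apart.

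No gene passed the test of the mouse means against 0. Of 15875 features with at least 3 mice, 0 (0.0%) had an adjusted p under 0.05 in limma, the lowest adjusted p was 0.828, and 775 (4.88%) had an unadjusted p under 0.05, 345 of them above 0 and 430 below. With 4 mice and no control samples of its own, the ratio leaves out the spread among conventional mice, and an exact sign-flip test of 4 values cannot go below 0.125. The genes below are therefore described by their values, and "above" and "below" refer to 0 and not to a called change. Of the 15875 features, 8096 (51.0%) had a mean above 0 and 7779 below, which is the share to set beside the list counts. Among 12595 features measured in all 4 mice, all 4 mouse means lay above 0 in 1110 (8.81%) and below 0 in 959 (7.61%). All 8 arrays lay above 0 in 57 (0.453%) and below 0 in 74 (0.588%). The median feature had an SD between mice of 0.398 in Dll1 clone spleen, against 0.257 in wildtype clone spleen and 0.109 in Dll1 clone liver.

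**Figure D1:**
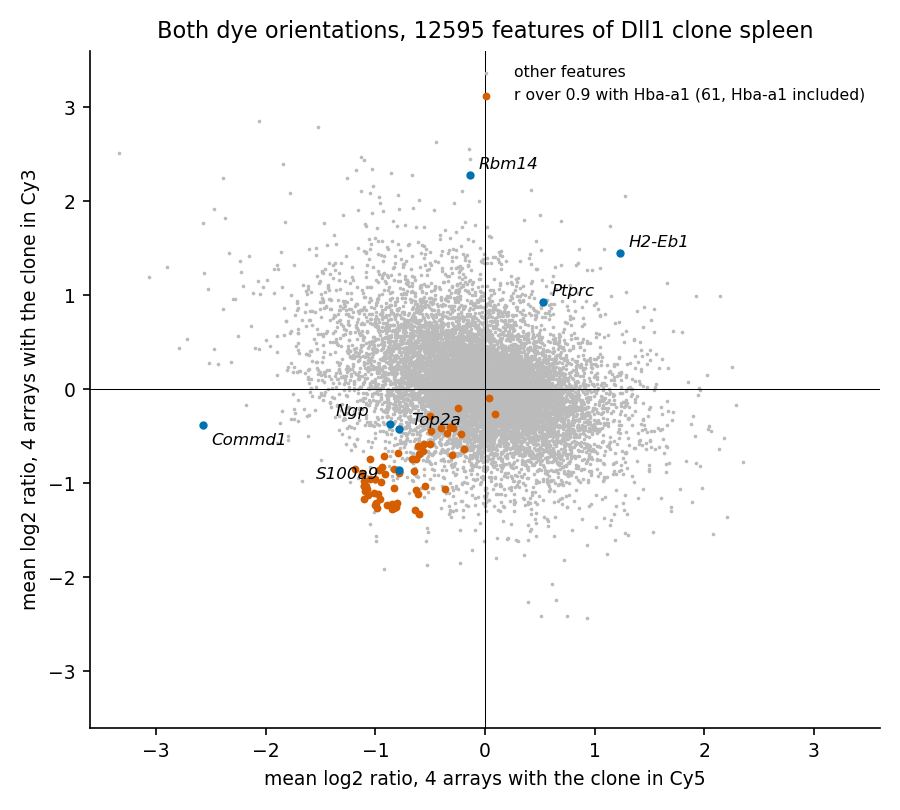
Each point is 1 of 12595 features, with the mean log2 ratio of the 4 arrays with the clone in Cy5 on the x axis and of the 4 arrays with the clone in Cy3 on the y axis. Most features form a cloud that slopes downward, and the 61 orange points, which run with Hba-a1 over the 8 arrays at r above 0.9 (Hba-a1 included), lie largely along the rising diagonal on the negative side.

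Genes of red cell precursors formed the list that lay furthest below 0. Of 27 erythroid genes tested, 4 lay above 0 and 23 below, with a median of -0.345 against 0.007 over all features, and none passed the test. All 4 mouse means lay below 0 for 10 of the 26 members measured in all mice, beside 7.61% of all features. The mice were unequal, with list medians of -0.112, -0.806, -0.429 and -0.0548 for mice 1 to 4. The median was -0.287 on the Cy5 arrays and -0.363 on the Cy3 arrays, and 0.0605 with the Cy3 arrays turned.

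Hba-a1, an alpha globin chain of adult haemoglobin, had 6 spots and ranged widely between mice. With the clone in Cy5 it lay at -0.43, -2.04, -1.15 and -0.21 in mice 1 to 4, and with the clone in Cy3 at -0.88, -2.40, -1.12 and -0.26. The mean of its spots was below 0 on all 8 arrays, with mouse 2 lowest and mouse 4 nearest 0. The dyes of a mouse differed by 0.222 on average, with only 3.76% of features closer. The mean was -1.06 ± 0.86 (SD, n = 4 mice), with an adjusted p of 0.828 in limma, and the mean was 0.10 with the Cy3 arrays turned. Hba-a2 is a near-identical copy that can bind the same spots, so the value stands for alpha globin rather than for 1 gene.

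Other genes of haem and of the red cell were mostly lowest in mice 2 and 3, as Hba-a1 was, with different agreement between dyes. Prdx2, an abundant red cell peroxidase, lay at -0.09, -1.67, -1.32 and -0.25 with the clone in Cy5 and at -0.11, -1.95, -0.93 and -0.38 in Cy3, again lowest in mice 2 and 3. Its mean was -0.84 ± 0.78 (SD, n = 4 mice), and 0.0056 with the Cy3 arrays turned. Alas2, which makes the first precursor of haem in red cells, lay at -0.51, -1.44, -1.34 and -0.27 in Cy5 and at 0.04, -0.76, -0.31 and 0.08 in Cy3, so that mice 1 and 4 had both signs. Its mean was -0.56 ± 0.48 (SD, n = 4 mice). Car2, a carbonic anhydrase, averaged -0.76 ± 0.75, and Slc4a1, the anion exchanger of the red cell membrane, -0.61 ± 0.64 (SD, n = 4 mice). Klf1, a transcription factor that drives globin genes, averaged -0.71 ± 0.86, with mice 1 and 4 at 0.01 and 0.05 and mice 2 and 3 at -1.39 and -1.51. Rhd, a membrane protein of the Rh group, averaged -0.83 ± 0.61 but was dye-dependent, at -1.58 over the Cy5 arrays and -0.08 over the Cy3 arrays. Gata1, the factor that governs the erythroid lineage, averaged -0.08 ± 0.63, and Ank1, the membrane anchor ankyrin, 0.03 ± 0.32 (SD, n = 4 mice).

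The promoters of Hba-a1 and Alas2, the first globin and the first haem enzyme described, are shown because the erythroid factor Gata1 was measured beside them. Each is the 200 bases before the RefSeq start on the strand of the gene in GRCm38.p6, at chr11:32283472-32283671 on the plus strand and chrX:150547217-150547416 on the plus strand, with GATAA, searched on both strands, in capitals (TTATC is its other strand) and CCAAT also in capitals in Hba-a1.
Hba-a1: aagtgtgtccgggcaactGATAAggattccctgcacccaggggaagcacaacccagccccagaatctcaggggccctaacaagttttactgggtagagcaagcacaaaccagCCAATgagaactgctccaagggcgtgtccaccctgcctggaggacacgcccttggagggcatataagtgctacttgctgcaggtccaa
Alas2: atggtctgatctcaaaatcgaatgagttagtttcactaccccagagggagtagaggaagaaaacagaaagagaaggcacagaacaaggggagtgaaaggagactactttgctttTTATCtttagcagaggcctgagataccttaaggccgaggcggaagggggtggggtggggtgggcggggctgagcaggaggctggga
GATAA was present in 7 of 18 erythroid promoters that RefSeq listed (38.9%) and in 18.1% of all 32851 promoters of this length. The 18 take the first listed start of each gene, whereas the 32851 hold every listed start, so the shares are over unlike units. A match is a description of the letters, not a site or a cause.

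Many other spots repeated the haemoglobin pattern. Among 14548 rows measured on all 8 arrays, 39 (0.268%) correlated above 0.95 with the mean of the 6 Hba-a1 spots, and 1 (0.00687%) below -0.95. These rows were chosen by that likeness, so their values are a description. All 39 had a mean below 0, from -1.13 to -0.394 with a median of -1.04, and their median slope on Hba-a1 was 1.01. Named ones include genes with no special role in red cells: H3f3a, a histone (-1.06), Tap1, a peptide transporter of antigen presentation (-1.04), Cdca8, a subunit of the chromosomal passenger complex (-1.13), Aspn, a matrix protein (-1.06), and Plppr2 (-1.06). In wildtype clone spleen, which did not choose them, 24 of the 39 correlated above 0.9 with Hba-a1, against 104 of 17981 rows (0.578%), and in Dll1 clone liver 4 of 39 did, against 49 of 20282 (0.242%). The rows were close together in the table: 18 of the 39 (46.2%) lay between rows 15362 and 15673, in a block of 1000 rows that held 5.25% of the rows considered, and 5 of the 6 Hba-a1 spots lay between rows 15370 and 15571. Whether these spots hold globin sequence or take signal from neighbouring spots was not tested.

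**Figure D2:**
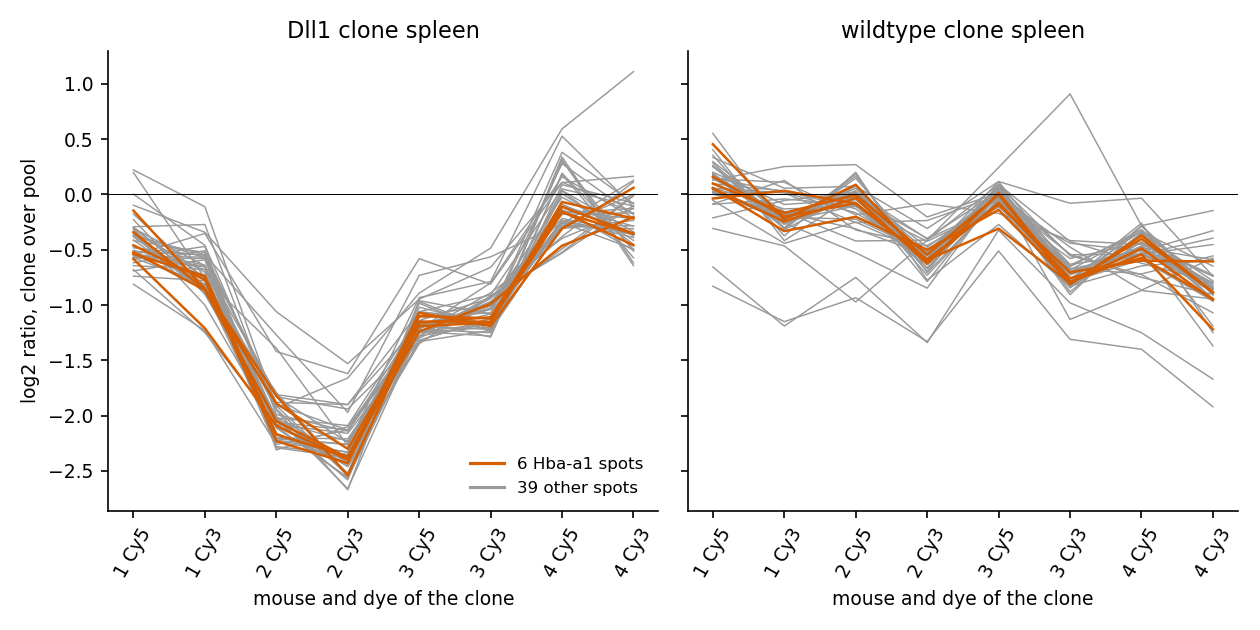
The y axis is the log2 ratio of clone over pool and the x axis the array, by mouse and clone dye, for Dll1 clone spleen and wildtype clone spleen. The 6 Hba-a1 spots and the 39 other spots trace the same steps over the 8 Dll1 arrays, lowest in mouse 2 and nearest 0 in mouse 4, and most of the 39 follow Hba-a1 in the wildtype arrays too.

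Of the 73 features other than Hba-a1 that lay below 0 on all 8 arrays, 23 correlated above 0.9 with Hba-a1, and 0 of the 57 above 0 did. Over all features with 8 arrays, 60 of 12594 did. Hba-a1 itself lay below 0 on all 8 arrays, so features that follow it tend to lie there too. The contrast between the sides of 0 is thus largely built in. Without the features that run with Hba-a1, the erythroid median was -0.309, with 4 genes above 0 and 18 below. In wildtype clone spleen, Prdx2 lay at -0.95, Car2 at -1.03 and Slc4a1 at -0.77, whereas Hba-a1 lay at -0.37, Tap1 at -0.30 and Plppr2 at -0.33.

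Neutrophil granule genes lay below 0 in part. Of 15 genes, 7 lay above 0 and 8 below, with a median of -0.311, and 4 of the 12 measured in all mice were below 0 in every mouse, beside 7.61% of all features. The list medians were -0.134, -0.383, -0.295 and 0.049 for mice 1 to 4, and the list median was 0.0401 with the Cy3 arrays turned. S100a9, which pairs with S100a8 as calprotectin, lay at -0.19, -1.11, -1.37 and -0.46 with the clone in Cy5 and at -0.97, -0.86, -0.73 and -0.89 in Cy3. All 8 arrays were below 0 once its 2 probes were averaged, and mice 2 and 3 were lowest. The single probes averaged -1.3 and -0.346, with 1 and 2 arrays above 0. Its mean was -0.82 ± 0.23 (SD, n = 4 mice; adjusted p = 0.828 in limma), and 0.04 with the Cy3 arrays turned. Ngp, a neutrophil granule protein, lay at -0.48, -0.54, -1.12 and -1.33 in Cy5 and at -0.28, -0.46, -0.46 and -0.27 in Cy3. Every array was below 0 and every Cy5 value was the lower of the mouse, with a mean of -0.62 ± 0.21 (SD, n = 4 mice) and -0.25 with the Cy3 arrays turned. S100a8 averaged -0.74 ± 0.65 with mouse 4 at 0.20, and the antimicrobial peptide gene Camp -0.54 ± 0.62 with mouse 4 at 0.05 (SD, n = 4 mice). Mpo, the myeloperoxidase of granules, averaged -0.31 ± 0.23, whereas Ltf and Lcn2, which bind iron or its carriers, averaged 0.07 ± 0.31 and 0.15 ± 0.53 (SD, n = 4 mice).

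Genes of antigen presentation by MHC class II were led by H2-Eb1, the beta chain of the H2-E molecule. Over 8 class II genes, 5 lay above 0 and 3 below, with a median of 0.158 and mouse medians of 0.384, 0.421, 0.319 and -0.0594, and the list median was -0.107 with the Cy3 arrays turned. H2-Eb1 lay at 1.58, 1.54, 1.18 and 0.61 with the clone in Cy5 and at 1.42, 1.61, 1.76 and 0.998 in Cy3. All 8 arrays were above 0, mouse 4 was the lowest in both dyes, and the dyes of a mouse differed by 0.301 on average, against a median of 0.792 over all features. The mean was 1.34 ± 0.36 (SD, n = 4 mice), with an adjusted p of 0.828 in limma and a mean of -0.11 with the Cy3 arrays turned.

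The other class II genes lay closer to 0. Ifi30, a lysosomal reductase that opens antigens for loading, lay at 0.51, 0.49, 0.47 and 0.36 in Cy5 and at 0.28, 0.67, 0.30 and 0.49 in Cy3. Its 8 arrays were within a narrow band above 0, with a mean of 0.45 ± 0.09 (SD, n = 4 mice) and 0.01 with the Cy3 arrays turned. Cd74, the invariant chain that guards the class II groove, averaged 0.38 ± 0.22 over 3 probes, with mice 1 to 4 at 0.45, 0.62, 0.34 and 0.10. Ctss, the protease that trims it, averaged 0.25 ± 0.32, with mouse 4 at -0.21. H2-Ab1, the beta chain of H2-A, averaged -0.16 ± 0.14, H2-DMa, a loading chaperone, -0.06 ± 0.18, and H2-Oa, which holds that chaperone back, -0.44 ± 0.63 (SD, n = 4 mice). The class II chains thus did not share 1 direction, and MHC genes are alike enough that probes may share signal.

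The H2-Eb1 promoter is shown because the members of its list differ from it in value. The 200 bases before the RefSeq start lie at chr17:34305667-34305866 on the plus strand of GRCm38.p6, with the X box (the first and longest run) and CCAAT, both searched on both strands, in capitals (the run ATTGG is CCAAT on the other strand).
H2-Eb1: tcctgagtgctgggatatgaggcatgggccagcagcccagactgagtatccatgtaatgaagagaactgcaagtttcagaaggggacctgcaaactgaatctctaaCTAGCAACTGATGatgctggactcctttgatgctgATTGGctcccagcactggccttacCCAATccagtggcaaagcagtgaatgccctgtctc
The X box, with 1 free base, was in 1 of 6 class II promoters listed by RefSeq (16.7%) and in 2 of all 32851 (0.00609%), and CCAAT in 3 of the 6 (50%) and in 29.3% of all. Here too the 6 are first starts of genes and the 32851 every listed start. No match elsewhere says only that these exact letters are not in that window.

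Class I genes and lymphocyte genes lay slightly above 0. Of 9 class I genes tested of 11 on the array, 7 lay above 0 and 2 below, with a median of 0.124. B2m, the light chain of class I, lay at 0.59, 0.46, 0.03 and -0.07 in Cy5 and at 0.50, 0.26, 0.34 and -0.16 in Cy3, high in mice 1 and 2 and below 0 in mouse 4. It averaged 0.24 ± 0.28, and H2-Q10, a secreted class I heavy chain, averaged 0.33 ± 0.12 with all 8 arrays above 0 (SD, n = 4 mice). The median was 0.184 without Tap1, which ran with Hba-a1.

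B cell genes gave 8 of 11 above 0 with a median of 0.143, and T cell genes 10 of 15 with 0.122, beside 51.0% of all features above 0. These medians kept their sign in each dye alone and without any 1 mouse. With the Cy3 arrays turned they were 0.0646 and 0.108. The members named next lie above 0, while 3 B cell and 5 T cell genes lay below. Ms4a1, the B cell surface protein CD20, lay at 1.01, 0.47, 0.48 and 0.64 in Cy5 and at -0.10, 0.30, 0.26 and 0.46 in Cy3. Its mouse means were within 0.37 to 0.55, with a mean of 0.44 ± 0.08 (SD, n = 4 mice). Cd4, the coreceptor of helper T cells, averaged 0.26 ± 0.11 and Cd28, a costimulatory receptor, 0.28 ± 0.20 (SD, n = 4 mice). Ptprc, the CD45 phosphatase of all white blood cells, lay at 0.58, 0.60, 0.64 and 0.28 in Cy5 and at 1.03, 0.87, 0.27 and 1.53 in Cy3. Its 8 arrays were above 0, with a mean of 0.73 ± 0.20 (SD, n = 4 mice; adjusted p = 0.828 in limma) and -0.20 with the Cy3 arrays turned. Its 2 probes averaged 0.56 and 0.89, with 1 and 2 arrays below 0.

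Marginal zone B cell genes, the cells that need Dll1, could be read for 4 markers only, with a median of 0.135. Plac8 averaged 0.26 ± 0.28, Cd9 -0.03 ± 0.19 and S1pr3 0.01 ± 0.47 (SD, n = 4 mice), and S1pr1, a receptor that holds these cells in place, 0.41 ± 0.12 (SD, n = 3 mice). The list median was 0.532 on the Cy5 arrays alone and -0.197 on the Cy3 arrays alone. Macrophage genes gave 8 of 9 above 0 with a median of 0.187, which kept its sign in each dye and without any 1 mouse. Lyz2, a lysozyme, averaged 0.31 ± 0.16, Vcam1, an adhesion molecule of red pulp macrophages, 0.39 ± 0.26 and Hmox1, which breaks down haem, 0.39 ± 0.62 with mouse 4 at 1.29 (SD, n = 4 mice). Stromal and endothelial genes gave 14 of 18 above 0, with a median of 0.088. Pdgfra, a receptor of fibroblasts, averaged 1.21 ± 1.47 with mouse 2 at -0.99 and the other mice at 1.89 to 1.99 (SD, n = 4 mice). Its dyes disagreed, with mouse 1 at 0.615 in Cy5 and 3.36 in Cy3, and mouse 4 at 4.23 and -0.364. They differed more than in 98.5% of features, and its 2 probes averaged 0.123 and 1.82.

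**Figure D3:**
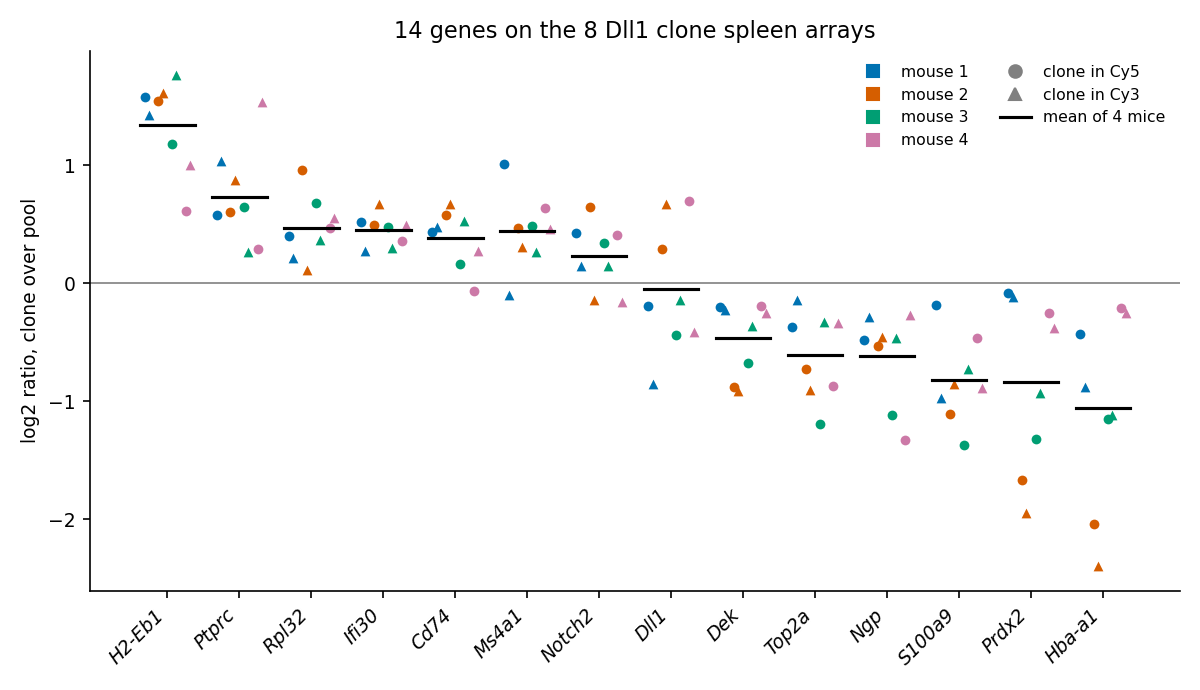
The y axis is the log2 ratio of clone over pool on single arrays for 14 genes, with the colour giving the mouse, the marker the dye of the clone and the bar the mean of the 4 mice. With the probes of a gene averaged, H2-Eb1 and Ptprc are above 0 on all 8 arrays. Hba-a1, S100a9, Ngp and Top2a are below 0 on all 8, and of the 14 genes Hba-a1 spreads widest by mouse.

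Genes of cell division lay below 0 in most members but not in every mouse. Of 27 DNA replication genes, 6 lay above 0 and 21 below, with a median of -0.154, and of 33 mitosis genes 9 lay above and 24 below, with a median of -0.0988. Mouse medians were 0.015, -0.139, -0.197 and -0.0765 for replication and -0.0725, -0.207, -0.104 and 0.078 for mitosis. All 4 mouse means lay below 0 for 3 of 23 replication and 4 of 32 mitosis genes measured in all mice, beside 7.61% of all features. The replication median was -0.0812 without mouse 4. It kept its sign in each dye and without any 1 mouse. With the Cy3 arrays turned, the replication median was -0.0155 and the mitosis median 0.0181. Top2a, the topoisomerase that untangles chromosomes, lay at -0.37, -0.73, -1.19 and -0.87 in Cy5 and at -0.14, -0.91, -0.33 and -0.34 in Cy3. All 8 arrays were below 0, with mouse 1 nearest 0. Its mean was -0.61 ± 0.25 (SD, n = 4 mice; adjusted p = 0.828 in limma), and -0.18 with the Cy3 arrays turned.

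Other genes of the cycle varied more. Tpx2, a spindle factor, averaged -0.36 ± 0.26 with all arrays below 0, and mouse 2 at -0.75 stood apart from the others at -0.28 to -0.20 (SD, n = 4 mice). Mcm2, a subunit of the replicative helicase, averaged -0.43 ± 0.21, but its Cy5 arrays averaged 0.14, and its mean was 0.57 with the Cy3 arrays turned (SD, n = 4 mice). Uhrf1, which copies DNA methylation at the fork, averaged -0.43 ± 0.29 (SD, n = 4 mice). Dek, a chromatin protein of dividing cells, lay at -0.20, -0.88, -0.68 and -0.19 in Cy5 and at -0.23, -0.91, -0.36 and -0.26 in Cy3. It averaged -0.46 ± 0.32 and was among the features that run with Hba-a1 (SD, n = 4 mice). On the other side of 0, Cdc45, a helicase partner, averaged 0.38 ± 0.30 with all Cy5 arrays below 0 and all Cy3 arrays above, and the checkpoint gene Mad2l1 averaged 0.65 ± 0.69 (SD, n = 4 mice). Mad2l1 was dye-dependent too, at -0.219 over the Cy5 arrays and 1.52 over the Cy3 arrays.

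The Top2a promoter is shown for its repeated CCAAT boxes, which are common in promoters of mitotic genes. The 200 bases before the RefSeq start lie at chr11:99024190-99024389 on the minus strand of GRCm38.p6, written on the strand of the gene, with CCAAT, searched on both strands, in capitals (ATTGG on the other strand).
Top2a: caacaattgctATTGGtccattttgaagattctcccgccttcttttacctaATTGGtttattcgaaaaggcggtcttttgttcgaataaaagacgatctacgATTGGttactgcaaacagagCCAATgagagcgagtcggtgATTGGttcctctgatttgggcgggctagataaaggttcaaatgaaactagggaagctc
It holds 5 such boxes. CCAAT was in 19 of 26 mitosis promoters listed by RefSeq (73.1%) and in 29.3% of all 32851, and 2 or more were in 12 of the 26 (46.2%) against 7.98% of all. Again the 26 are first starts of genes and the 32851 every listed start. This describes the list and says nothing of what acted in these spleens.

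Ribosomal protein genes lay above 0 by a small amount. Of 61 genes, 51 lay above 0 and 10 below, with a median of 0.128 against 0.007 over all features. All 4 mouse means were above 0 for 19 of the 58 measured in all mice, beside 8.81% of all features, and mouse medians were 0.233, 0.142, 0.0776 and 0.0535. The median kept its sign without any 1 mouse and in each dye, at 0.187 in Cy5 alone and 0.0423 in Cy3 alone. It was 0.0588 with the Cy3 arrays turned. Rpl32, a protein of the large subunit, lay at 0.40, 0.96, 0.68 and 0.46 in Cy5 and at 0.21, 0.11, 0.36 and 0.55 in Cy3, all above 0. It averaged 0.47 ± 0.11, Rps14 0.22 ± 0.15 and Rps15 0.15 ± 0.09, each with 8 arrays above 0 once its 2 probes were averaged (SD, n = 4 mice). Single probes were less even. Both Rpl32 probes had 7 arrays above 0, those of Rps14 had 7 and 8, and those of Rps15 had 4 and 5. Rpl11 averaged -0.41 ± 0.38, and 1 of its 2 probes ran with Hba-a1. Many processed pseudogenes copy ribosomal protein genes, so spots may take signal from several.

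**Figure D4:**
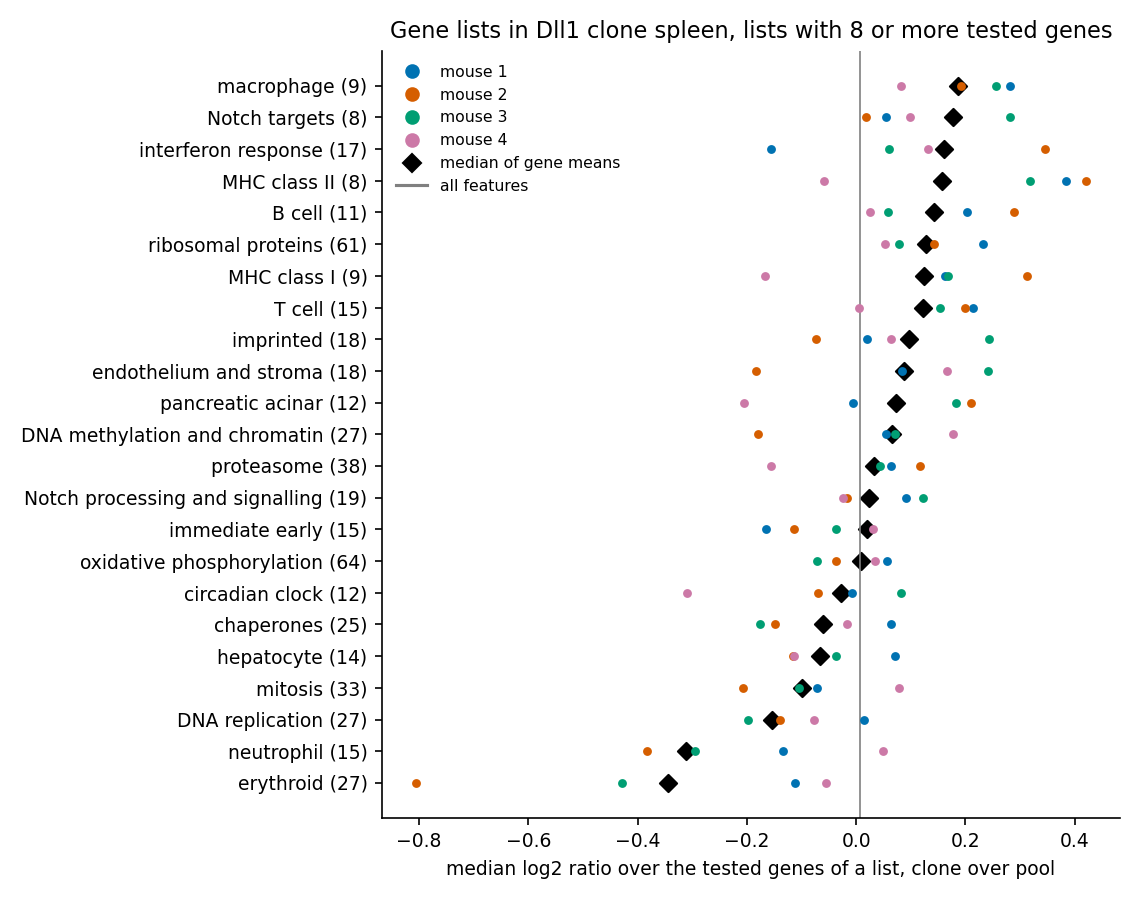
Each row is 1 of 23 gene lists with at least 8 tested genes, the x axis is the median log2 ratio of clone over pool, points are the medians of single mice, diamonds the list median and the line the median of all features. The erythroid list lies furthest left with mouse 2 at -0.806, and the macrophage, MHC class II and ribosomal protein lists lie to the right of the line.

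In the Notch pathway no gene passed the test, and its ligands, receptors and targets had both signs. Dll1 lay at -0.19, 0.29, -0.44 and 0.69 with the clone in Cy5 and at -0.85, 0.67, -0.14 and -0.41 in Cy3. Both signs occurred in each dye, and the mean was -0.05 ± 0.45 (SD, n = 4 mice; adjusted p = 0.962 in limma). This mean joins 2 probes of opposite sign, at 0.24 and -0.49. It was 0.14 with the Cy3 arrays turned and 0.28 when any measured array of a mouse was used. The probes were not matched to a part of the gene, and clones and pool both carry the Dll1 label, so the value does not check a genotype.

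Among the other ligands, Jag1 averaged 0.26 ± 0.32 (SD, n = 3 mice), Jag2 -0.12 ± 0.39, with probes at -0.39 and 0.44, and Dlk1, a Delta-like protein without the usual receptor-activating domain, 0.23 ± 0.29 (SD, n = 4 mice). Of the receptors, Notch2 lay at 0.42, 0.65, 0.34 and 0.41 in Cy5 and at 0.14, -0.14, 0.14 and -0.16 in Cy3. Its mouse means were all above 0, with a mean of 0.23 ± 0.07 (SD, n = 4 mice; adjusted p = 0.828 in limma), and this came from the Cy5 arrays. Notch1 averaged 0.04 ± 0.30 (SD, n = 4 mice) and Notch4 -0.02 ± 0.20 (SD, n = 3 mice).

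The proteases and modifiers gave 12 of 19 genes above 0 with a median of 0.0231, and -0.123 with the Cy3 arrays turned. Adam10 and Adam17, which make the first cut in the receptor, averaged 0.20 ± 0.23 and 0.40 ± 0.23, and Ncstn, a subunit of gamma-secretase, 0.25 ± 0.29 (SD, n = 4 mice). Rfng, a sugar transferase that tunes ligand choice, averaged -0.36 ± 0.19 with all mouse means below 0 (SD, n = 4 mice). Rbpj, the DNA-binding partner, averaged 0.02 ± 0.25 and Maml1, its coactivator, -0.18 ± 0.76 with mouse 2 at 0.95 and the others at -0.64 to -0.51 (SD, n = 4 mice).

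Of 8 target genes tested, 6 lay above 0 and 2 below, with a median of 0.177, and 0 passed in limma. Hes1 averaged -0.22 ± 0.59, Hes5 0.18 ± 0.17, Hes6 0.11 ± 0.15 and Hes7 0.30 ± 0.19 (SD, n = 4 mice). Hey1 averaged 0.22 ± 0.34, over 3 probes from -0.17 to 0.55, and Hey2 -0.60 ± 0.58, where mouse 4 in Cy5 was at -3.46 and in Cy3 at 0.58 (SD, n = 4 mice). Dtx1, a target that is high in marginal zone B cells, averaged 0.19 ± 0.22 (SD, n = 4 mice). The target median was 0.42 on the Cy5 arrays alone and -0.136 on the Cy3 arrays alone, so the sign depended on the dye.

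Imprinted genes and chromatin genes, often examined after nuclear transfer, gave no shared direction. Of 18 imprinted genes, 11 lay above 0 and 7 below, with a median of 0.0961, and -0.143 with the Cy3 arrays turned. Rasgrf1, a paternally expressed exchange factor, averaged 0.62 ± 0.50, Gnas, which encodes a G protein subunit, 0.25 ± 0.12 and Slc22a18, a maternally expressed transporter, -0.77 ± 1.23 (SD, n = 4 mice). Of 27 genes of DNA methylation and chromatin, 16 lay above 0 and 11 below, with a median of 0.0661.

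By rank of the test, the single genes furthest from 0 were of mixed kinds, and their dyes often disagreed. Rims3, a protein of synaptic release, averaged 1.09 ± 0.27 with Cy5 arrays at 0.98 to 3.40 and Cy3 arrays at -0.42 to 0.94, and Kctd10, an adaptor of a ubiquitin ligase, averaged 1.24 ± 0.53 with Cy5 arrays at 0.58 to 3.87 and Cy3 arrays at -0.55 to 1.33 (SD, n = 4 mice). Rbm14, a nuclear RNA-binding protein, had its high values in the other dye, with Cy3 arrays at 1.29 to 3.28, Cy5 arrays at -0.53 to 0.48 and a mean of 1.07 ± 0.51 (SD, n = 4 mice), and -1.21 with the Cy3 arrays turned. Commd1, which takes part in copper handling, was below 0 on all 8 arrays, at -0.17, -1.54, -3.85 and -4.74 in Cy5 and at -0.70, -0.42, -0.17 and -0.20 in Cy3. Its mean was -1.47 ± 0.93 (SD, n = 4 mice), and its dyes differed more than in 98.2% of features. Ktn1, a kinesin-binding protein of the endoplasmic reticulum with 3 probes averaged, lay at -0.69, -0.07, -0.72 and -1.54 in Cy5 and at -0.81, -1.29, -0.42 and -0.999 in Cy3. Its mean was -0.82 ± 0.31 with all 8 arrays below 0, and 0.06 with the Cy3 arrays turned. Single probes averaged -1.52 to -0.25, and each had 2 or 3 arrays above 0. Apart from this ranking, Serpina1b, a protease inhibitor in the hepatocyte list, was above 0 on all 8 arrays with a mean of 0.43 ± 0.04 (SD, n = 4 mice).

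The difference between Dll1 and wildtype clones in spleen asks whether the clone over pool ratio differs with the Dll1 label. Each group was read against its own pool, which carried the same label as its clones. A level that goes with the label alike in clones and pool cancels in the ratio. Any difference between the pools enters as well, so the values below cannot be read as effects of the Dll1 label alone. Of 15632 features, 0 (0.0%) passed in limma, with a lowest adjusted p of 0.871, and 730 (4.67%) had an unadjusted p under 0.05. H2-Eb1 lay at 0.45 ± 0.40 in wildtype spleens, so the difference was 0.89 (SE 0.26). Ngp lay at 0.10 ± 0.04 there, a difference of -0.72 (SE 0.17), S100a9 at -0.06 ± 0.32, a difference of -0.76 (SE 0.21), and Ptprc at 0.28 ± 0.04, a difference of 0.45 (SE 0.16) (SD, n = 4 mice). The neutrophil list had a median of 0.0307 in wildtype spleens. All of these differences had an adjusted p of 0.871 in limma.

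In other groups the wildtype values were as far from 0 or further. The DNA replication list had a median of -0.31 in wildtype spleens and the mitosis list -0.175, and Top2a lay at -0.52 ± 0.18 (SD, n = 4 mice). The class II list lay at 0.331, with Ifi30 at 0.58 ± 0.06 and Cd74 at 0.52 ± 0.04, Ms4a1 lay at 0.71 ± 0.10 and Lyz2 at 0.76 ± 0.05 (SD, n = 4 mice). By rank of the test, the differences further above 0 included Nars, a tRNA synthetase, at 1.27 (SE 0.21), Fam120b at 1.30 (SE 0.28) and Fabp5, a fatty acid carrier, at 1.01 (SE 0.20). Those below 0 included Rab2b, a vesicle GTPase, at -1.46 (SE 0.30), Adipoq, the fat cell hormone adiponectin, at -1.15 (SE 0.22), Gas8, a motile cilium protein, at -0.92 (SE 0.20) and Ktn1 at -0.93 (SE 0.19). Of these, Nars, Fabp5, Rab2b and Adipoq rest on 3 Dll1 mice. The Nars mean in Dll1 spleen was -0.56 in Cy5 and 1.68 in Cy3, and -1.12 with the Cy3 arrays turned. The Adipoq mean was -0.34, and 0.27 when any measured array of a mouse was used.

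**Figure D5:**
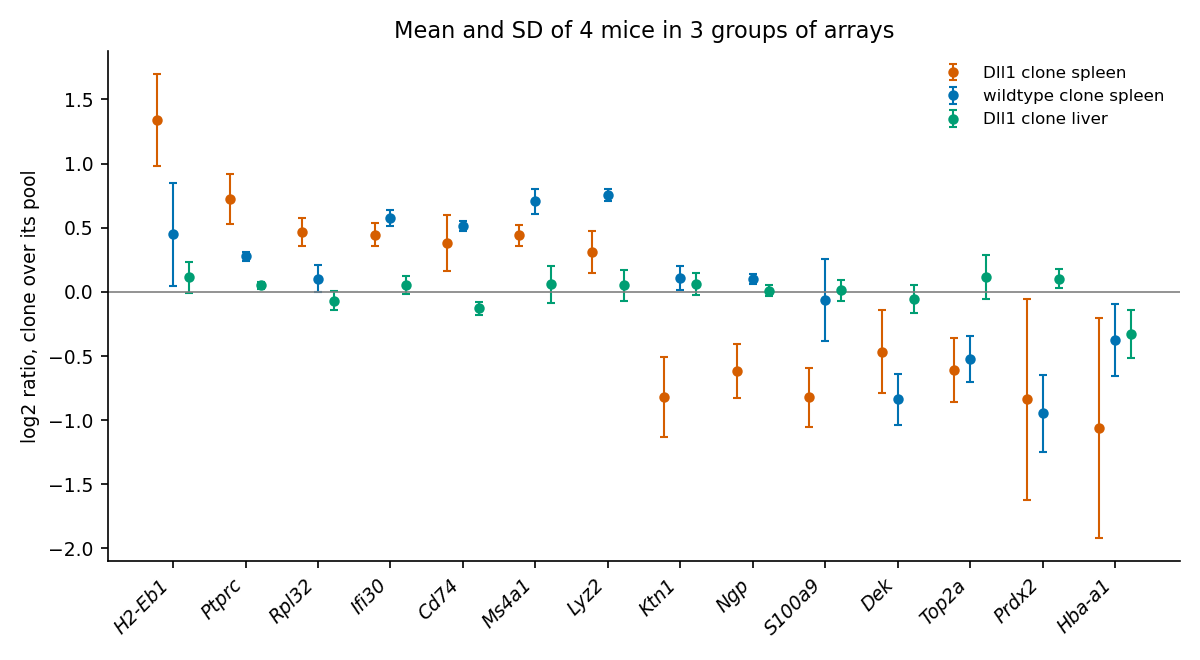
The y axis is the log2 ratio of clone over pool for 14 genes, with points for the mean of 4 mice and bars for 1 SD, in Dll1 clone spleen, wildtype clone spleen and Dll1 clone liver. H2-Eb1 is at 1.34, 0.45 and 0.11 in these groups, Ngp is below 0 in Dll1 clone spleen alone, and the bar of Hba-a1 in Dll1 clone spleen is the widest.

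Spleen and liver of the same 4 Dll1 clones ask whether a value goes with the animal or with the organ. Of 15859 features, 0 (0.0%) passed in limma, with a lowest adjusted p of 0.36, and 1386 (8.74%) had an unadjusted p under 0.05. This fit did not pair the organs of a mouse. With the mouse as a block, 0 features passed in limma, the lowest adjusted p was 0.761, and 899 had an unadjusted p under 0.05. H2-Eb1 lay at 0.11 ± 0.12 in liver, a difference of 1.23 (SE 0.19, adjusted p = 0.36 in limma), and S100a9 at 0.01 ± 0.08, a difference of -0.83 (SE 0.15). Rpl32 lay at -0.07 ± 0.07 in liver, a difference of 0.54 (SE 0.12), Cd74 at -0.13 ± 0.05, a difference of 0.51 (SE 0.14), and Top2a at 0.12 ± 0.17, a difference of -0.72 (SE 0.17) (SD, n = 4 mice). The erythroid median was 0.0118 in liver and the ribosomal median -0.0617. Hba-a1 lay at -0.33 ± 0.19 in liver (SD, n = 4 mice). By rank of the test, Pja2, a ubiquitin ligase, at 1.41 (SE 0.21) and Capn10, a calpain, at 0.996 (SE 0.14) lay further above 0 in spleen, and Mat2b, a regulator of S-adenosylmethionine synthesis, at -1.29 (SE 0.17) and Slc25a35, a mitochondrial carrier, at -0.79 (SE 0.16) below. Pja2, Capn10 and Mat2b rest on 3 mice. In spleen, Mat2b in mouse 3 was at 0.937 in Cy5 and -3.59 in Cy3, and Pja2 in mouse 1 at 3.53 and -0.412. The SE is over mouse means and does not show such gaps between arrays.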

How the data were processed

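Spleen RNA was extracted with an RNeasy Midi kit and labelled indirectly with Cy3 or Cy5, per the labels. The authors deposited 1 log2 ratio for each row and array, with normalisation, scanner settings and log base not given in the sources used here. A log2 scale was read from the values, in which a constant over 9 in size marked empty channels. Such values, 425 on the spleen arrays of the Dll1 clones, were set to missing. The 2 arrays of a mouse were averaged, then probes of a gene, and features with at least 3 mice were tested in limma 3.58.1 (R 4.3.3, lmFit and eBayes) with Benjamini-Hochberg adjustment over all features and a threshold of 0.05. Each organ or genotype comparison used the 2 groups alone.

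The table gives no gene names. A row was named by the platform symbol of the probe 11 places before it, a shift at which rows of 1 gene correlated over the mouse means at 0.0562 on average (2258 pairs), against -0.000694 with no shift. Without the Dll1 spleens the value was 0.0491 (3738 pairs). All names rest on it. Of 20794 rows, 12760 were named, with 9026 symbols, and 7372 of the 15875 features tested have none.

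The cloned mouse and its liver are tied by the mouse identifiers in the labels, which pair spleen and liver. Whether replicate arrays of a mouse used 1 RNA extract is not stated. The named genes are Dll1 and the Notch lists, those with the smallest p or with all 8 arrays on 1 side of 0, the 4 list members of smallest p, and genes of earlier results. Klf1, Car2, Slc4a1, Gata1, Ank1, Mpo, Ltf, Lcn2, Ctss, H2-Ab1 and H2-DMa were added for their role after their values were seen. Members and lists were chosen with earlier results of these data known. The fits were tested on simulated data. Promoters came from RefSeq (GRCm38.p6).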

Additional observations from a re-analysis of the deposited data

Results flagged for a closer look

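In 8 of 119 groups of 4 mice, 1 mouse stood further from the rest than Dixon's limit allows, and chance flags about 1 in 20 groups. In H2-Eb1, mouse 4 lay at 0.806 and the other mice at 1.47 to 1.58, so it stood apart by its lower value. Mouse 2 lay at 0.947 in Maml1 (others -0.64 to -0.506), at -0.991 in Pdgfra (others 1.89 to 1.99), at -0.746 in Tpx2 (others -0.285 to -0.2) and at 0.281 in Rps15 (others 0.097 to 0.121). The dyes of Pdgfra differed more than in 98.5% of features, so the closeness of its other mice holds for dye averages only. In Rpl32, mouse 1 lay at 0.307 and the others at 0.506 to 0.535. Mouse 3 lay at 1.49 in Rims3 (others 0.949 to 0.96), and mouse 4 at -0.0015 in Gas8 (others -0.697 to -0.599).

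Among the named genes, some had every Dll1 clone spleen on 1 side of 0 and every sample of another group on the other. Ngp, Gas8 and Fam120b were named in part for their small p in the wildtype comparison, so their separation is a description. The share of all features with such a split was not counted. The differences were also fitted in limma, and none passed. Against wildtype clone spleen, with an adjusted p of 0.871 in limma in each case, these were Ngp (-0.717), Mpo (-0.515), Gas8 (-0.924), Fam120b (1.3) and Rbm14 (1.48). Against Dll1 clone liver, these were Rpl32 (0.538), Rps14 (0.377), Rps15 (0.239), Cd74 (0.509) and Aspn (-1.19), with adjusted p from 0.488 to 0.579 in limma.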

How the results depend on the processing

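Under each alternative except the fit over all 4 groups, 0 features passed in limma against the pool, with 526 to 2675 at an unadjusted p under 0.05, the lowest without mouse 2 and the highest with the Cy3 arrays turned. One fit of all 4 groups, where the liver arrays lower the shared spread, passed 1159 features against the pool, and 87 for Dll1 minus wildtype spleen. For spleen minus liver, single arrays were also fitted, with each organ of a mouse as random block and a dye term. That fit passed 1 feature, H2-Eb1 (adjusted p = 0.0217 in limma). The correlation within blocks was -0.0516, so the arrays of a mouse counted almost as separate samples. The call is therefore not one over 4 mice. In the paired fit with the mouse as replicate block, no feature passed in limma (count 0), with 899 at an unadjusted p under 0.05 instead of 1386, and it changed no other call. Leaving out 1 mouse, 0 features passed in each comparison. Without mouse 2 or mouse 3, the unadjusted count for spleen minus liver was 785 or 885.

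Turning the Cy3 arrays changed the sign of 16 of 30 list medians and of 44 of 99 named genes, while centring the arrays changed none and scaling them changed 3 and 2. Of the list medians, 5 changed sign in Cy5 alone, 10 in Cy3 alone, and 4, 5, 8 and 5 without mice 1 to 4. Leaving out the features that run with Hba-a1, chosen after seeing the data, changed no sign of a list median. Spot signal and background were not used here. Precision is limited by the 4 mice.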

Other observations

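Interferon response genes gave 11 of 17 above 0 with a median of 0.16, which was -0.109 in Cy5 alone and -0.0498 with the Cy3 arrays turned. Igtp, an interferon-induced GTPase, averaged -0.81 ± 0.52 and Rsad2, the antiviral enzyme viperin, -0.61 ± 0.45, while Cxcl10, a chemokine, averaged 0.24 ± 0.14 (SD, n = 4 mice). Chaperones gave 10 of 25 above 0 with a median of -0.0597, with Hspb1, a small heat shock protein, at 0.65 ± 0.24 and Tcp1, a subunit of the chaperonin, at -0.53 ± 0.34 (SD, n = 4 mice). Hspb1 was at 1.44 in Cy5 alone and -0.15 in Cy3 alone. Proteasome genes gave 22 of 38 above 0 with a median of 0.0331, and oxidative phosphorylation genes 33 of 64 with a median of 0.00862. Immediate early genes, which respond to handling within minutes, gave 8 of 15 above 0 with a median of 0.0192, and circadian clock genes 6 of 12 with a median of -0.0271.

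Markers of organs next to the spleen were also read. Pancreatic acinar genes gave 7 of 12 above 0 with a median of 0.0738, and hepatocyte genes 5 of 14 with a median of -0.0658. Plasma cell genes gave 3 of 5 above 0, with Xbp1, a factor of secretory cells, at 0.60 ± 0.38 and Sdc1, a surface proteoglycan, at -0.54 ± 0.34 (SD, n = 4 mice). Xbp1 was at -0.297 in Cy5 alone and 1.49 in Cy3 alone. The plasma cell median of 0.0437 was -0.0887 in Cy5 alone and -0.34 in Cy3 alone. Platelet genes gave 2 of 6 above 0 with a median of -0.0666, dendritic cell genes 2 of 4 with a median of -0.0112, and both genes of NK and cytotoxic cells lay above 0 with a median of 0.0789. None of these genes passed the test in limma (0.0% of all features did).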
